A study of Sesamum indicum with 195 samples.

Results

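The roots of the waterlogging-tolerant sesame genotype ZZM2541 (R2G) were compared between 32 h of waterlogging (R2G_32) and the control of the same hour (CK_R2G_32). The 2 groups were chosen by their sample labels and hold 3 samples each, 6 of the 195 in the series. All 6 were roots of flowering plants grown in pots in a greenhouse. Waterlogged pots stood in water above the soil surface, and control pots were kept at normal soil moisture throughout. A single plant was taken from each of 3 replicate pots per group, so replicates are separate plants. The labels give no treatment other than the water. EG (Ezhi No. 2), the susceptible genotype, and R2G at other hours, each with its own controls, are given only where a difference was tested or values are set side by side. Waterlogging of the pots lasted 36 h and was followed by 12 h of drainage, so 32 h was the last waterlogging time with a control of its own.

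Water that fills the soil pores slows the diffusion of oxygen to the root. Root cells short of oxygen cannot keep up respiration and draw on glycolysis and fermentation for energy, while energy-costly processes such as growth and translation are reduced. In Arabidopsis, ethylene trapped by the water and transcription factors that are degraded only in the presence of oxygen switch on the core genes of this response. Superoxide dismutase, catalase and peroxidases remove the reactive oxygen species that form under shortage of oxygen and again when air returns. The identifiers of the sesame genes in the table are bare locus numbers. A functional name was at hand for only 15 genes, and the others are described by locus, place and level.

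Expression was given as TPM, a length-corrected share of a library's transcripts scaled to a fixed total, for 20271 genes, of which 18178 had a mean of at least 1 TPM over all 195 samples and were tested. This unit keeps no depth, so the depth of each library is unknown and no counting interval can be given. As it is a share, a gene can be lower because others took more of the library, and in whole roots fewer cells of a type and less RNA per cell cannot be told apart. The identity of the tissue could be checked only in part. AP3, a floral homeotic gene in Arabidopsis, was at 2.60, 1.76 and 1.46 TPM in waterlogged roots, against 5.04, 2.83 and 3.76 TPM in control roots.

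A library of each group stood apart. On log2(TPM + 1), waterlogged replicates 2 and 3 correlated at 0.982, and replicate 1 correlated with them at only 0.939 and 0.941. Control replicates 1 and 3 correlated at 0.985, and replicate 2 with them at 0.966 and 0.967. Control replicate 2 was also the control most like the waterlogged libraries, at 0.913 to 0.920, against 0.852 to 0.892 for the other controls. Of 65 conditions, waterlogged R2G at 32 h had the second widest replicate spread, with a median standard deviation over genes of 0.319 on the log2 scale, and its control had 0.225.

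The waterlogged replicates resembled different hours of the experiment. Replicate 1 was closest to waterlogged R2G at 36 h, where the correlation was 0.985, and then to 28 h at 0.973. Replicates 2 and 3 were closest to R2G at 8 h of waterlogging, at 0.967 and 0.964, and reached only 0.942 and 0.948 with 36 h. Next to 8 h, replicates 2 and 3 were closest to waterlogged EG at 28 h, at 0.964 and 0.962. EG at 32 h, waterlogged or control, was left out of these correlations, so likeness to it is not known. Replicate 1 correlated on average at 0.926 with the 6 other waterlogging times that have a control and at 0.948 with the 8 that have none. For replicate 2 these means were 0.953 and 0.930, and for replicate 3 they were 0.952 and 0.926. Single hours departed from these means: at 2 h, an hour without a control, replicate 1 was below replicate 2 (0.893 against 0.910), and at 24 h, which has one, it was above it (0.949 against 0.946). No label gives a batch that goes with this. The extraction protocol speaks of fewer root samples than the series holds, so whether all samples were handled as 1 set is not known, and its part in the results was not tested. The counts of calls are therefore also given without waterlogged replicate 1 and control replicate 2, a setting chosen after the data were seen.

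**Figure D1:**
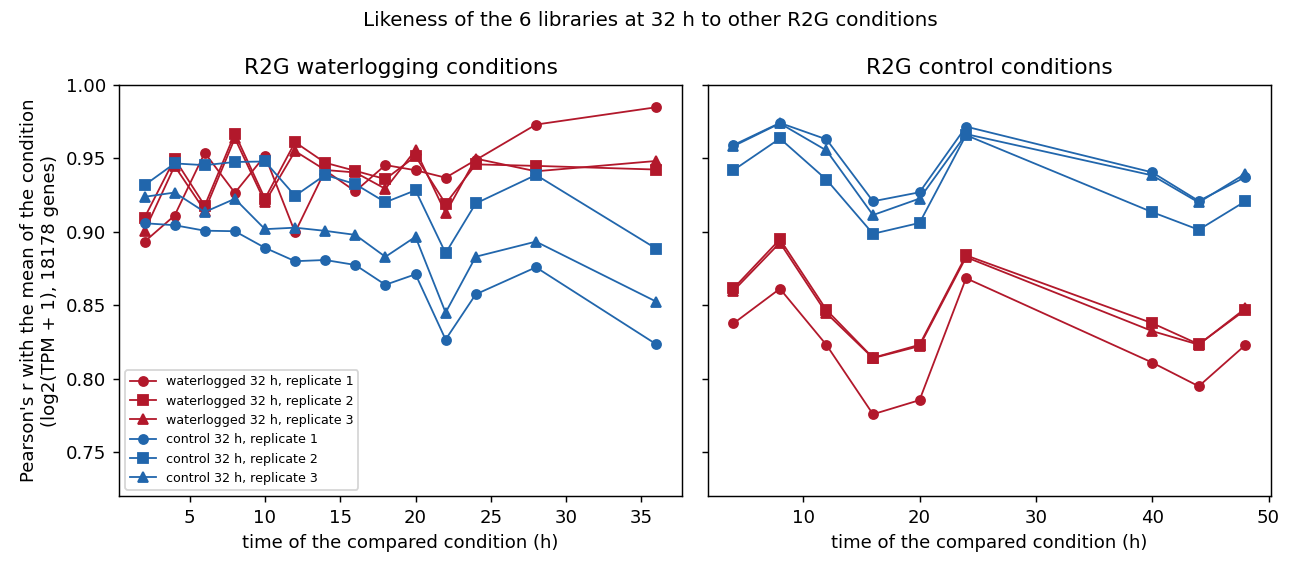
Pearson's correlation (y axis, log2(TPM + 1) over 18178 genes) of each of the 6 R2G libraries at 32 h with the mean of every other R2G waterlogging condition (left) and control condition (right), by hour (x axis). Waterlogged replicate 1 (red circles) climbs to 0.985 at 36 h, where replicates 2 and 3 stand at 0.942 and 0.948, and control replicate 2 (blue squares) lies above the other controls in the left panel.

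At 32 h far more genes had lost than gained transcript share in waterlogged R2G roots. With limma on log2(TPM + 1), a Benjamini-Hochberg adjusted p under 0.05 and a log2 fold change of at least 1 in size, 3668 of 18178 genes were called (20.2%). Of these 518 rose (2.85% of the genes tested) and 3150 fell (17.3%), so falls made up 85.9% of the calls. The median log2 fold change was 1.51 among the genes that rose and -1.55 among those that fell, beside -0.30 over all tested genes. That shift of the whole distribution went to -0.02 after median-ratio scaling, in which every library is divided by the median of its ratios to the average library. Under the scaling 1022 genes rose and 2284 fell, so the rises made up 30.9% of the calls, against 14.1% as deposited, and 76.4% of the original calls were kept.

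Large changes were mostly falls. A log2 fold change of 3 or more was reached by 40 genes that rose and 257 that fell. All 3 waterlogged libraries lay above all 3 controls for 509 of the 518 genes that rose, and below them for 3138 of the 3150 that fell. Among all tested genes the groups stood apart in these directions for 10.5% and 35.4%. Of the genes that fell, 767 were under 1 TPM in every waterlogged library, and 27 of those had at least 10 TPM in every control. In the other direction, 26 genes that rose were under 1 TPM in every control.

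The genes that rose held 115358, 109935 and 106941 TPM in the waterlogged libraries, against 26024, 45145 and 31451 TPM in the controls. The genes that fell held 54133, 42698 and 41480 TPM in the waterlogged libraries, against 186250, 137313 and 160755 TPM in the controls. Control replicate 2 was in each case the control nearest to the waterlogged libraries. Fewer genes carried more of the waterlogged transcript pool: the 10 most abundant genes took 6.46%, 6.36% and 5.95% of it, against 3.82%, 4.65% and 4.06% in the controls, and 16351, 16083 and 16213 genes reached 1 TPM, against 18184, 17422 and 18096.

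The number of calls rested on single libraries. Without control replicate 1, 2023 genes were called by limma (251 rose, 1772 fell), and without control replicate 3, 2480 were called (367 rose, 2113 fell). Without waterlogged replicate 1 and control replicate 2, 835 genes rose and 4091 fell, and 94.7% of the original calls were kept. Control replicate 2 was the lowest control for 77.1% of the genes that fell and for 54.4% of all tested genes. Waterlogged replicate 1 was the highest waterlogged library for 53.9% of the genes that rose and for 34.6% of all tested genes.

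**Figure D2:**
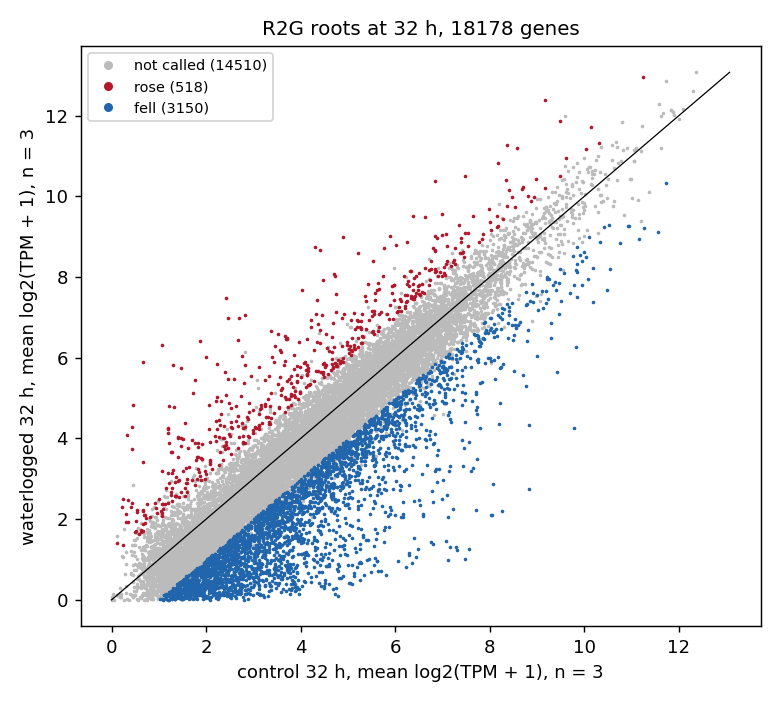
Mean log2(TPM + 1) of each of 18178 genes in waterlogged R2G roots at 32 h (y axis) against control roots (x axis), n = 3 each. The 518 genes that rose are red, the 3150 that fell are blue, and grey genes passed no call.

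Calls came from genes of every level. By the mean of the other 9 R2G control times, which the comparison did not use, 2.93% of genes at 1 to 10 TPM rose and 18.5% fell. At 10 to 100 TPM these shares were 2.35% and 17.4%, and at 100 TPM or more 3.68% and 15.0%. The remaining 168 genes were under 1 TPM in those controls and passed the filter through other conditions, so no share is read from them.

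The largest rises were of genes at high levels in waterlogged roots that had a few TPM or less in most control roots. LOC105162194, on linkage group 5 from 7053588 to 7059590 of genome v1.0, was at 261, 47.0 and 39.1 TPM in waterlogged roots, against 0.822, 1.20 and 1.31 TPM in control roots. Its log2 fold change was 5.24 (SE 0.65, adjusted p = 0.0021 by limma). The groups did not overlap, but waterlogged replicate 1 was far above the other waterlogged libraries, and without it the log2 fold change was 4.38. LOC105165762, on linkage group 1 from 1226362 to 1229803, was at 124, 50.3 and 32.0 TPM in waterlogged roots, against 0.219, 1.29 and 0.399 TPM in control roots. This gave a log2 fold change of 5.24 (SE 0.49, adjusted p = 0.0010 by limma), and of 4.71 without waterlogged replicate 1.

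LOC105178909, not placed on a linkage group, showed the widest gap between waterlogged libraries. It was at 713, 101 and 78.5 TPM, against 4.44, 2.30 and 7.63 TPM in control roots, with a log2 fold change of 5.06 (SE 0.79, adjusted p = 0.0045 by limma). Without waterlogged replicate 1 this was 4.07. LOC105170923, on linkage group 9, was at 347, 90.5 and 62.4 TPM in waterlogged roots, against 4.77, 4.89 and 6.95 TPM in control roots, a log2 fold change of 4.29. LOC105165756, on linkage group 6, was the most abundant of these genes when waterlogged, at 763, 285 and 353 TPM, against 10.8, 12.5 and 47.1 TPM in control roots, a log2 fold change of 4.43. The steadiest was LOC105156119, on linkage group 2 from 14029293 to 14030607, at 60.7, 56.9 and 41.9 TPM in waterlogged roots, against 1.10, 1.53 and 3.04 TPM in control roots. Its log2 fold change was 4.27 (SE 0.30, adjusted p = 0.00082 by limma), and 4.17 without waterlogged replicate 1.

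The other 4 of the 10 largest rises had log2 fold changes between 4.38 and 4.55. LOC105166455 was at 291, 50.4 and 40.3 TPM in waterlogged roots, against 3.35, 1.61 and 3.25 TPM in control roots. LOC105155217 was at 269, 114 and 63.7 TPM in waterlogged roots, against 3.18, 6.11 and 4.62 TPM in control roots. LOC105169208 was at 140, 55.4 and 22.1 TPM in waterlogged roots, against 1.59, 0.671 and 2.45 TPM in control roots. Replicate 1 was again the highest waterlogged library in each. LOC105161008 was at 72.6, 9.67 and 28.6 TPM in waterlogged roots, against 0.329, 0.240 and 0.570 TPM in control roots. Its lowest waterlogged library was replicate 2. Over all 40 genes with a rise of at least 3, replicate 1 was the highest waterlogged library for 35, while replicates 2 and 3 were above every control for all 40.

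**Figure D3:**
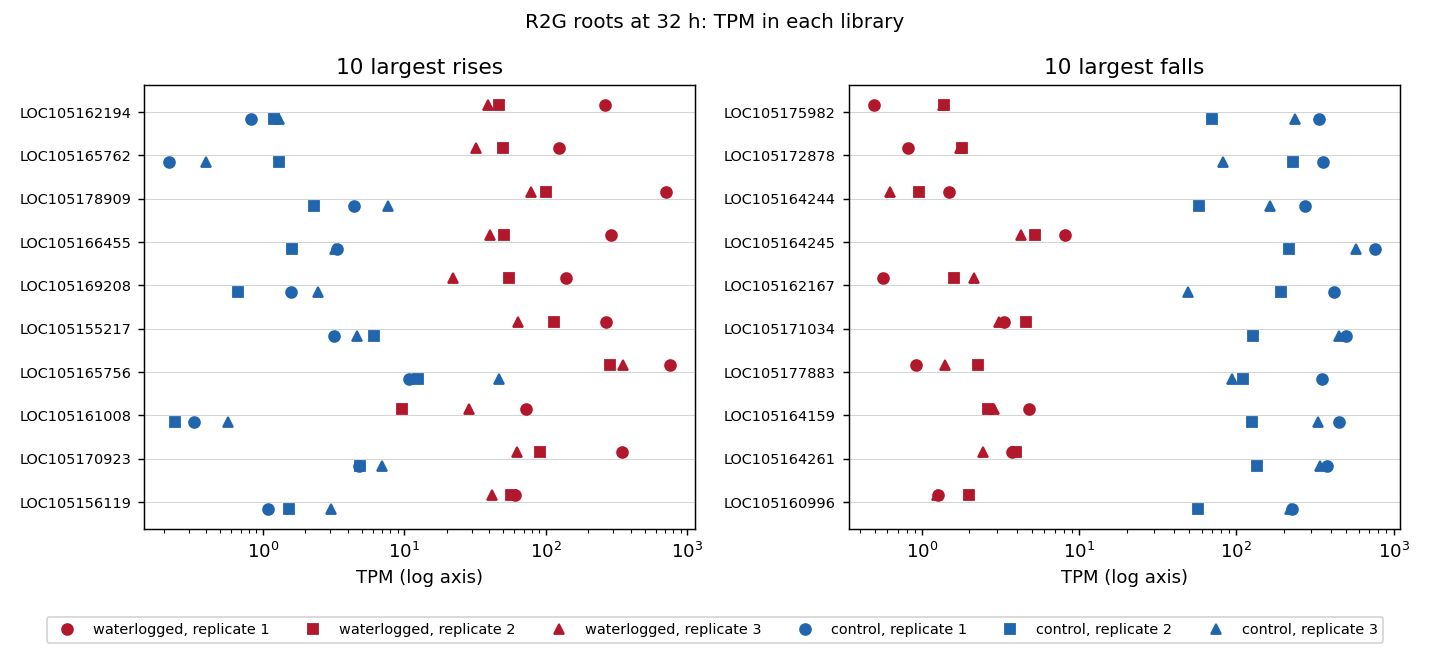
TPM (x axis, log scale) in each of the 6 libraries for the 10 largest rises (left) and the 10 largest falls (right) among called genes whose groups did not overlap, waterlogged libraries in red above control libraries in blue. Waterlogged replicate 1 (red circles) is the highest point of every rise, and control replicate 2 (blue squares) is the lowest control of 7 of the 10 falls.

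By their means, these 10 genes were highest late in waterlogging. For each of them the mean at 32 h ranked second of the 15 R2G waterlogging times, behind 36 h, and the mean at 28 h was far lower. The genes were chosen as high in these 32 h libraries, so their rank at 32 h is partly set by the choice. The 32 h means also lean on replicate 1. In LOC105162194 waterlogged replicates 2 and 3, at 47.0 and 39.1 TPM, were below the 6 h mean of 58.3 TPM. LOC105162194 averaged 16.4 TPM at 28 h (5.64, 24.3 and 19.2 TPM) and 294 TPM at 36 h (534, 180 and 169 TPM), and LOC105165762 averaged 9.35 TPM at 28 h and 138 TPM at 36 h. LOC105156119 averaged 10.9 TPM at 28 h and 58.8 TPM at 36 h. After 2 h of drainage, at 38 h, the means of these genes were 41.0, 39.4 and 34.8 TPM. For 38 of the 40 genes with a rise of at least 3, waterlogged replicates 2 and 3 at 32 h were both above the mean of 28 h, but the genes were chosen on these same libraries, and nothing is read from this count. No control was taken at 28 or 36 h, and these hours were not tested.

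The largest falls were of genes at a few TPM when waterlogged that were abundant in control roots. LOC105175982, on linkage group 13 from 323842 to 325659, was at 0.492, 1.39 and 1.35 TPM in waterlogged roots, against 337, 70.0 and 235 TPM in control roots. Its log2 fold change was -6.45 (SE 0.54, adjusted p = 0.00087 by limma), the largest of all calls, and control replicate 2 was the lowest control. The mean of the gene was already at 14.2 TPM after 2 h and stayed between 0.0204 and 6.97 TPM from 4 h to 36 h. At 46 h and 48 h, during drainage, it averaged 15.4 and 31.3 TPM, against 256 TPM in the control of 48 h.

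LOC105172878, on linkage group 10, was at 0.808, 1.79 and 1.74 TPM in waterlogged roots, against 356, 228 and 81.8 TPM in control roots, a log2 fold change of -6.30. LOC105162167, on linkage group 5, was at 0.562, 1.60 and 2.15 TPM in waterlogged roots, against 420, 191 and 49.0 TPM in control roots, a log2 fold change of -6.09. LOC105177883, on linkage group 15, was at 0.914, 2.27 and 1.39 TPM in waterlogged roots, against 351, 111 and 94.1 TPM in control roots, a log2 fold change of -5.98. In these 3 genes the lowest control was replicate 3, and waterlogged replicate 1 was the lowest of all libraries. LOC105171034, on linkage group 9, was at 3.34, 4.59 and 3.09 TPM in waterlogged roots, against 500, 127 and 451 TPM in control roots. LOC105160996, on linkage group 4, was at 1.27, 1.98 and 1.25 TPM in waterlogged roots, against 226, 56.6 and 219 TPM in control roots.

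Of the 10 largest falls, 4 lay on linkage group 6, and 3 of them were neighbours between 9020073 and 9034872. LOC105164245 was at 8.10, 5.23 and 4.27 TPM in waterlogged roots, against 757, 217 and 574 TPM in control roots, a log2 fold change of -6.09 (SE 0.45, adjusted p = 0.00082 by limma). LOC105164244 was at 1.48, 0.961 and 0.625 TPM in waterlogged roots, against 273, 57.8 and 164 TPM in control roots, a log2 fold change of -6.12. LOC105164159 was at 4.76, 2.64 and 2.85 TPM in waterlogged roots, against 447, 125 and 332 TPM in control roots, a log2 fold change of -5.94. The order of the libraries was nearly the same in the 3 neighbours, with control replicate 1 highest and control replicate 2 lowest. LOC105164261, from 9273759 to 9274885, was at 3.76, 3.95 and 2.43 TPM in waterlogged roots, against 379, 135 and 339 TPM in control roots. Whether neighbours share sequence was not examined, and reads of near-identical copies could have been divided between them.

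The largest gains in TPM were in genes already abundant in control roots. LOC105171585, on linkage group 10 from 722385 to 723820, was at 4716, 5891 and 5516 TPM in waterlogged roots, against 275, 1804 and 378 TPM in control roots, a log2 fold change of 3.22 (SE 0.64, adjusted p = 0.0105 by limma). Its neighbour LOC105171586, from 726425 to 727660, was at 2903, 5014 and 3619 TPM in waterlogged roots, against 412, 1297 and 691 TPM in control roots, a log2 fold change of 2.38 (SE 0.44, adjusted p = 0.0077 by limma). LOC105158618, on linkage group 3, was the most abundant, at 6515, 10579 and 7350 TPM in waterlogged roots, against 1612, 4523 and 1932 TPM in control roots. In each of these genes control replicate 2 was the highest control by far. LOC105158618 had a log2 fold change of 1.72 (SE 0.45, adjusted p = 0.027 by limma) and lost its call when waterlogged replicate 2 or 3 or control replicate 1 or 3 was left out. LOC105171804, on linkage group 10, was at 2495, 4036 and 3796 TPM in waterlogged roots, against 818, 2009 and 878 TPM in control roots, and lost its call under the same 4 omissions. It overlaps LOC105171802, and reads of the pair could not be told apart here.

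The largest losses in TPM were in genes whose control level changed with the hour. LOC105160433, on linkage group 4, was at 1126, 414 and 361 TPM in waterlogged roots, against 3112, 3642 and 2368 TPM in control roots, a log2 fold change of -2.44 (SE 0.44, adjusted p = 0.0075 by limma). LOC105166705, on linkage group 7, was at 1017, 498 and 418 TPM in waterlogged roots, against 2506, 3146 and 1860 TPM in control roots, a log2 fold change of -2.04. LOC105166469, also on linkage group 7, was at 428, 650 and 435 TPM in waterlogged roots, against 2387, 2442 and 2020 TPM in control roots, a log2 fold change of -2.20 (SE 0.25, adjusted p = 0.0016 by limma). For all 3 genes the control at 32 h was the highest of the 10 R2G control times. The other control means of LOC105166469 ran between 23.7 and 1532 TPM, with the high ones at 8 h and 24 h, and waterlogged roots too had their highest mean at 32 h, at 504 TPM, against 20.3 TPM at 24 h. At 24 h the controls themselves were split: LOC105166469 was at 1345, 1462 and 23.0 TPM in replicates 1, 2 and 3, and the other pair split in the same way. LOC105174436, the fourth of the group, had a log2 fold change of -1.41 and lost its call under median-ratio scaling and in 5 of the 6 omissions of 1 library.

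**Figure D4:**
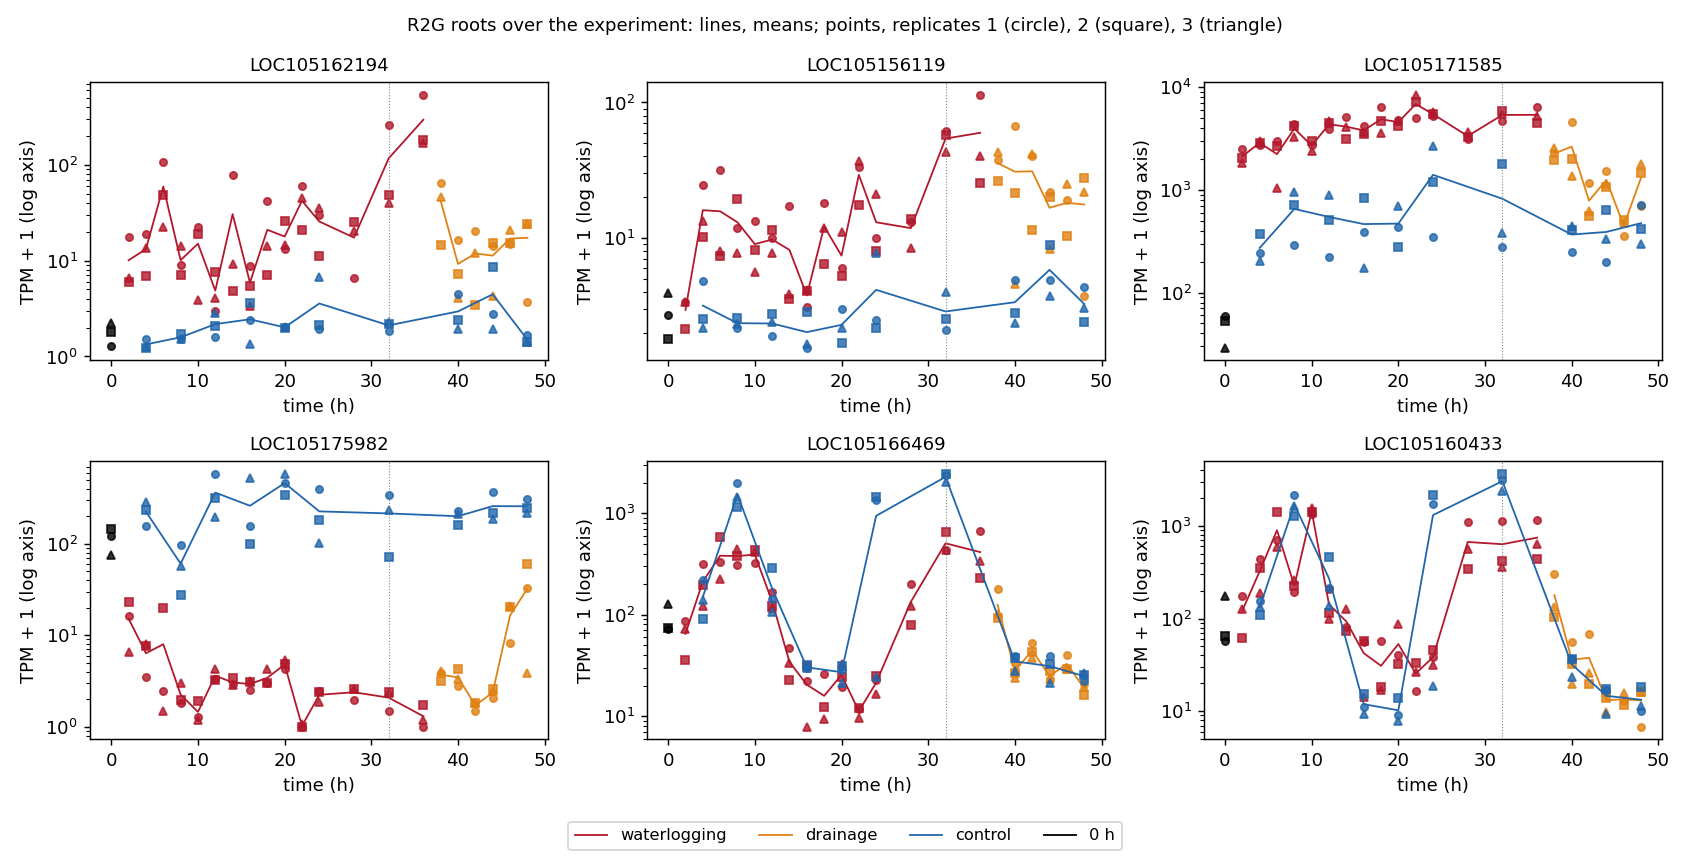
TPM + 1 (y axis, log scale) of 6 genes in R2G roots by hour (x axis), with lines through the means and points for each replicate, and a dotted line at 32 h. LOC105162194 and LOC105156119 had their highest means at 32 h and 36 h of waterlogging. LOC105171585 was high at all waterlogging times, and LOC105175982 was low from the first hours. LOC105166469 and LOC105160433 had their highest controls at 32 h.

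Of the 15 genes with a functional name, 14 passed the filter, and none rose and 1 fell, where 2.85% of all tested genes rose and 17.3% fell. Their median log2 fold change was -0.34, beside -0.30 over all tested genes. The gene that fell was FAD2 (LOC105163532), which makes linoleic acid from oleic acid in membrane lipids. FAD2 was at 0.738, 0.214 and 1.67 TPM in waterlogged roots, against 34.6, 17.0 and 33.0 TPM in control roots, a log2 fold change of -3.97 (SE 0.38, adjusted p = 0.0011 by limma). The groups were far apart, and the call held in all 13 alternatives. FAD7 (LOC105167042), a desaturase of plastid lipids in Arabidopsis, was at 727, 477 and 553 TPM in waterlogged roots, against 1120, 821 and 1323 TPM in control roots. Its log2 fold change of -0.89 had an adjusted p of 0.042 by limma but was under the fold threshold. Without waterlogged replicate 1 and control replicate 2 FAD7 passed both thresholds (log2 fold change -1.24, adjusted p = 0.0029 by limma), and also without either library alone.

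Among genes that remove reactive oxygen, none passed both thresholds in the values as deposited. A superoxide dismutase, as a fall, and a peroxidase, as a rise, did so in some alternatives. SOD (LOC105166989), a superoxide dismutase, was at 17.7, 30.0 and 28.0 TPM in waterlogged roots, against 53.0, 39.9 and 48.5 TPM in control roots. The groups did not overlap, but the log2 fold change of -0.90 (SE 0.24, adjusted p = 0.028 by limma) was under the fold threshold. SOD passed both thresholds without control replicate 2 (log2 fold change -1.01, adjusted p = 0.037 by limma). It also did so without waterlogged replicate 2 (-1.04, adjusted p = 0.040). Catalase (LOC105178686), which breaks down hydrogen peroxide, was at 71.5, 47.3 and 84.0 TPM in waterlogged roots, against 84.7, 84.8 and 83.9 TPM in control roots, with an adjusted p of 0.28 by limma. A peroxidase (LOC105177799) was at 134, 351 and 289 TPM in waterlogged roots, against 69.5, 165 and 84.5 TPM in control roots. Waterlogged replicate 1 and control replicate 2 made its groups overlap, and the log2 fold change of 1.26 (SE 0.43) had an adjusted p of 0.064 by limma. Without these libraries it was 2.04, with an adjusted p of 0.00033 by limma. The gene also passed both thresholds under median-ratio scaling (log2 fold change 1.59, adjusted p = 0.033 by limma), with a replicate block (adjusted p = 0.012), with a spread shared by all samples, and without either library alone.

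The glycolytic enzyme GAPDH (LOC105156676) moved with the libraries that stood apart, at 1168, 298 and 250 TPM in waterlogged roots, against 257, 539 and 225 TPM in control roots, with an adjusted p of 0.57 by limma. Beta-actin (LOC105159390), a cytoskeletal gene, was at 299, 269 and 230 TPM in waterlogged roots, against 258, 312 and 239 TPM in control roots, a log2 fold change of -0.02 (SE 0.19). DGAT1 (LOC105173637), which makes storage oil from diacylglycerol, was at 70.4, 62.3 and 69.9 TPM in waterlogged roots, against 58.7, 69.8 and 60.7 TPM in control roots. Neither gene showed a difference beyond the spread of its replicates. CYP81Q1 (LOC105177765), which makes the sesame lignan sesamin, was at 7.36, 12.9 and 22.2 TPM in waterlogged roots, against 6.63, 7.28 and 12.5 TPM in control roots, with overlapping groups and an adjusted p of 0.34 by limma. The glycosyltransferase SiUGT23 (LOC105160417), IPS, PPO, SeMGD2 and AP3 had log2 fold changes of 0.71, -0.31, -0.63, -0.82 and -0.72. All of them were above the p threshold in the values as deposited. Without waterlogged replicate 1 and control replicate 2, SiUGT23 (1.35), AP3 (-1.04) and SeMGD2 (-1.16), the last low in every library, passed both thresholds. Their adjusted p by limma were then 0.00080, 0.013 and 0.0053. IPS and PPO did not pass there. The gene MT did not pass the filter, with 1.05, 0.427 and 0.278 TPM in waterlogged roots, against 0.876, 1.01 and 0.855 TPM in control roots.

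The susceptible genotype EG was sampled at the same hour with its own controls. In EG 989 genes rose at 32 h (5.44% of those tested) and 4957 fell (27.3%). They included 413 of the 518 genes that rose in R2G, which is 79.7% of the R2G list and 41.8% of the EG list. They also included 2546 of the 3150 that fell in R2G, 80.8% of that list and 51.4% of the EG list. Of the R2G lists 0 and 10 genes were called in the opposite direction in EG. All 10 of the largest rises were called in EG, with log2 fold changes between 4.29 and 6.54, and so were all 10 of the largest falls, between -4.38 and -7.49.

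The difference between the genotypes was tested as an interaction, the log2 fold change in R2G minus that in EG, and few genes passed. By limma 63 genes were called (0.347%), 33 higher in R2G (0.182%) and 30 lower (0.165%). Without replicate 1 of all groups 0 genes were called (1959 had an unadjusted p under 0.05), and without replicate 3 again 0 (1290 had an unadjusted p under 0.05). Without replicate 2 of all groups 45 were called, and 21 of the 63 were among them. The plants were grown in randomized blocks, but no source ties the replicate numbers to blocks. With the replicate number as a block 6 of the 63 genes were called and no others. Of the 6 genes with the largest differences described next, LOC105163962 alone kept its call with the block. Without waterlogged R2G replicate 1 and control R2G replicate 2, 61 genes were called and 46.0% of the original list was kept.

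The genes with a higher value in R2G were mostly genes that fell less in R2G than in EG. Of the 33, 14 fell in R2G and 31 fell in EG, with median log2 fold changes of -0.99 in R2G and -3.24 in EG. LOC105168210, on linkage group 8, was at 4.50, 8.01 and 4.38 TPM in waterlogged R2G, against 21.2, 11.8 and 25.3 TPM in its control, and at 1.81, 0.991 and 2.49 TPM in waterlogged EG, against 84.0, 84.5 and 73.2 TPM in its control. The difference of the effects was 3.31 (SE 0.43, adjusted p = 0.020 by limma). LOC105160545, on linkage group 4, was at 25.9, 12.6 and 9.59 TPM in waterlogged R2G, against 23.3, 17.2 and 18.2 TPM in its control, where the groups overlapped. In EG the same gene was at 1.13, 4.46 and 2.81 TPM when waterlogged, against 47.0, 38.8 and 53.5 TPM in the control, and the difference of the effects was 3.35 (SE 0.52, adjusted p = 0.030 by limma). LOC105163771, on linkage group 6, had log2 fold changes of -1.74 in R2G and -5.24 in EG, a difference of 3.50 (SE 0.65, adjusted p = 0.048 by limma) that was not called without waterlogged R2G replicate 1 and control R2G replicate 2.

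The genes with a lower value in R2G mostly had log2 fold changes of opposite sign in the genotypes, but few were called in EG. Of the 30, 23 fell and 1 rose in R2G, 7 rose and 0 fell in EG, and 23 had opposite signs. Their median log2 fold changes were -1.40 in R2G and 0.59 in EG. LOC105163962, on linkage group 1, was at 86.2, 108 and 95.8 TPM in waterlogged R2G, against 226, 305 and 197 TPM in its control. In EG it was at 338, 167 and 189 TPM when waterlogged, against 61.7, 78.8 and 75.8 TPM in the control, and the difference of the effects was -2.90 (SE 0.36, adjusted p = 0.015 by limma). LOC105158911, on linkage group 3, was at 161, 214 and 158 TPM in waterlogged R2G, against 574, 743 and 513 TPM in its control. In EG it was at 665, 287 and 434 TPM when waterlogged, against 129, 240 and 153 TPM in the control, and the difference was -3.14 (SE 0.44, adjusted p = 0.020 by limma).

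LOC105156244, on linkage group 2, was at 36.8, 38.5 and 27.7 TPM in waterlogged R2G, against 184, 186 and 164 TPM in its control. In EG it was at 170, 63.1 and 88.7 TPM when waterlogged, against 59.7, 85.5 and 71.3 TPM in the control. These EG groups overlapped, and the log2 fold change of 0.46 in EG had an adjusted p of 0.29 by limma. The difference of the effects was -2.81 (SE 0.42, adjusted p = 0.027 by limma). These 3 genes followed the hours as the abundant genes above did: their R2G control at 32 h was the highest of the 10 control times, followed by 8 h. For LOC105158911 the R2G control averaged 610 TPM at 32 h and 372 TPM at 8 h, with a median of 9.77 TPM over the 9 other control times. LOC105166469 was also among the 30, with a log2 fold change of 0.60 in EG and a difference of -2.80 (SE 0.50, adjusted p = 0.042 by limma). LOC105160433 and LOC105166705 had like differences, -3.20 and -2.83, with adjusted p of 0.066 and 0.063 by limma.

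**Figure D5:**
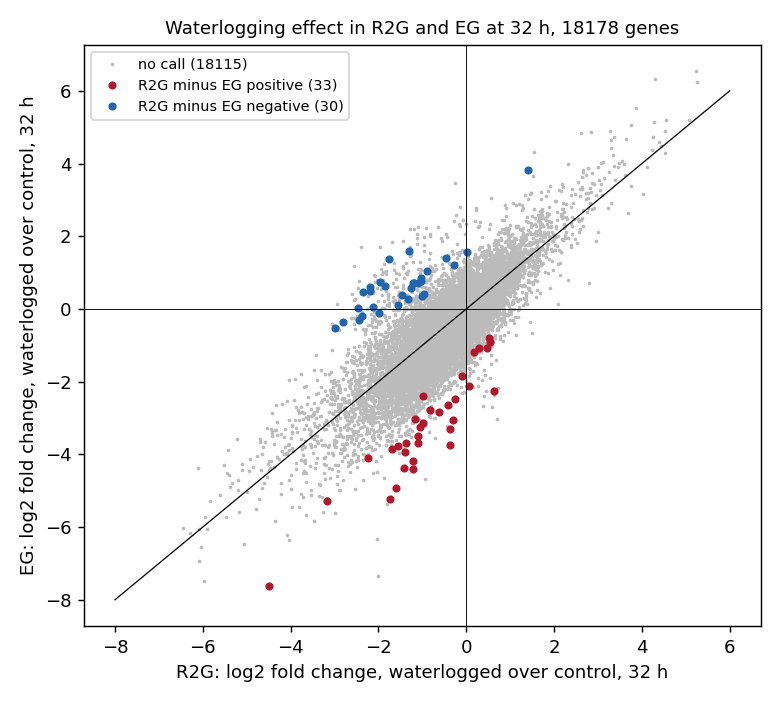
Log2 fold change at 32 h, waterlogged over control, of 18178 genes in R2G (x axis) and EG (y axis), with the line of equal effects. Red points are the 33 genes with a higher and blue points the 30 with a lower effect in R2G by the interaction test, and the remaining genes (grey) passed no call of a difference.

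Most genes that fell at 32 h had also fallen earlier in R2G, and fewer of those that rose had risen. Each time had its own controls. Of the 3150 genes that fell, 1081 (34.3%) fell at all 6 earlier times with a control, from 4 to 24 h, and 151 (4.79%) at none. Of the 518 that rose, 49 (9.46%) rose at all 6 and 112 (21.6%) at none. The shares of all tested genes called at all 6 times or at none were not computed, so no excess is read from these counts. At 4, 8, 12, 16, 20 and 24 h, 3.77%, 3.0%, 3.58%, 3.57%, 4.65% and 2.85% of all tested genes rose and 15.2%, 14.2%, 22.3%, 29.7%, 31.5% and 27.2% fell. The share of the 518 that rose was largest at 20 h, with 269 (51.9%), and at 8 h, with 263 (50.8%), and it was 200 (38.6%) at 24 h. The share of the 3150 that fell was 1740 (55.2%) at 8 h, 2578 (81.8%) at 20 h and 2601 (82.6%) at 24 h.

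At the drainage hours the medians of the genes called at 32 h were nearer to 0 than at 32 h. The median log2 fold change of the 518 genes that rose was 0.78 at 40 h, 0.28 at 44 h and 0.49 at 48 h. That of the 3150 that fell was -1.09, -0.53 and -0.40, beside -0.11, 0.01 and 0.06 over all tested genes. The genes were chosen on the 32 h libraries, so medians nearer to 0 at other hours are partly set by the choice. From 4 to 24 h of waterlogging the medians ran between 0.66 and 1.05 for the rises and between -1.08 and -1.87 for the falls. The medians at 40 h lay within these ranges, and an effect of drainage on them was not tested. At 40 h, 148 (28.6%) and 1651 (52.4%) were still called in the same direction, where 2.4% of all tested genes rose and 14.7% fell. At 44 h these were 71 (13.7%) and 911 (28.9%), where 2.55% rose and 8.64% fell, and at 48 h 44 (8.49%) and 431 (13.7%), where 1.08% rose and 3.67% fell. The log2 fold changes of the 10 largest falls were between -5.84 and -6.45 at 32 h. They were between -5.06 and -6.64 at 40 h, between -3.13 and -7.04 at 44 h and between -2.81 and -5.01 at 48 h. Some of these genes were thus further below their controls at 40 h or 44 h than at 32 h. LOC105164245, for example, had -6.09 at 32 h, -6.62 at 40 h, -7.04 at 44 h and -4.15 at 48 h.

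The change between 24 h and 32 h was tested as the effect at 32 h minus that at 24 h. By limma 17 genes were called (0.0935%), 15 with a higher effect at 32 h (0.0825%) and 2 with a lower effect (0.011%). Under median-ratio scaling 6 were higher and 6 lower. Control replicate 3 of 24 h stood apart from the other controls of that hour, and without it 75 genes were called, all 17 among them, in a setting chosen after the data were seen. Without waterlogged replicate 1 and control replicate 2 of 32 h 889 genes were called, again with all 17 among them. Without replicate 1 of every group 0 genes were called (3494 had an unadjusted p under 0.05), and likewise 0 without replicate 2 (1183). With a replicate block 8 genes were called, 6 of the 17 among them, and of the genes named next LOC105177161 and LOC105173663 kept their call.

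Of the 15 genes with a higher effect at 32 h, 5 rose at 32 h and 6 fell at 24 h. LOC105169032, on linkage group 8, was at 14.7, 23.2 and 10.1 TPM at 32 h of waterlogging, against 4.52, 3.35 and 4.64 TPM in the control. At 24 h it was at 1.78, 0.834 and 1.70 TPM when waterlogged, against 5.32, 5.92 and 4.22 TPM in the control, and the difference of the effects was 3.00 (SE 0.40, adjusted p = 0.023 by limma). The gene thus lay above its controls at 32 h and below them at 24 h, and it did so in EG too, with log2 fold changes of 2.18 and -1.39. LOC110012387, a gene of low level on linkage group 1, was at 3.40, 1.90 and 2.02 TPM at 32 h, against 0.401, 0.815 and 0.912 TPM in the control. Its log2 fold changes were 0.99 at 32 h and -1.22 at 24 h, with a difference of 2.21 (SE 0.35, adjusted p = 0.045 by limma). LOC105177161, on linkage group 15, fell at both hours, with log2 fold changes of -1.42 at 32 h and -3.65 at 24 h, a difference of 2.23 (SE 0.26, adjusted p = 0.014 by limma).

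Both genes with a lower effect at 32 h were above their controls at 24 h. LOC105172754, on linkage group 10, was at 20.1, 10.5 and 23.6 TPM at 32 h of waterlogging, against 33.7, 35.7 and 43.4 TPM in the control. At 24 h it was at 55.2, 74.5 and 72.2 TPM when waterlogged, against 27.6, 26.1 and 14.8 TPM in the control, a difference of -2.64 (SE 0.42, adjusted p = 0.045 by limma). LOC105173663, on linkage group 1, was at 3.39, 3.58 and 4.72 TPM at 32 h, against 6.30, 7.67 and 8.20 TPM in the control, with log2 fold changes of -0.78 at 32 h and 1.50 at 24 h and a difference of -2.28 (SE 0.26, adjusted p = 0.014 by limma).

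Called genes were found on all 16 linkage groups. The share that rose ran between 1.76% on linkage group 16 and 4.13% on linkage group 10, and the share that fell between 16.1% on linkage group 11 and 22.9% on linkage group 16. A neighbour on the linkage group that also rose was found for 68 of 499 genes that rose (13.6%), beside 5.55% of all genes. A neighbour that also fell was found for 1097 of 3058 genes that fell (35.9%), beside 31.7% of all genes. There were 7 runs of at least 3 neighbours that rose, 4 of them on linkage group 10, and 107 runs of neighbours that fell. How many runs such shares of called genes would give by themselves was not computed, so nothing is read from these numbers.

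The longest run of genes that rose lay on linkage group 2 between 14025706 and 14041253 and holds LOC105156119. Its neighbour LOC105156118, which overlaps it, was at 56.3, 73.2 and 43.3 TPM in waterlogged roots, against 3.02, 3.45 and 4.67 TPM in control roots, a log2 fold change of 3.62. LOC105156120 was at 28.4, 28.1 and 24.9 TPM in waterlogged roots, against 0.986, 1.39 and 1.65 TPM in control roots, a log2 fold change of 3.59. LOC105156116 was at 36.0, 14.4 and 10.4 TPM in waterlogged roots, against 1.64, 1.49 and 0.855 TPM in control roots, a log2 fold change of 3.02. The last was the only gene of the run in which waterlogged replicate 1 was over 2 times the others. All 4 were called in EG at 32 h, with log2 fold changes between 3.54 and 5.13, and at 24 h their log2 fold changes in R2G were between 0.83 and 1.78.

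The longest run of genes that fell holds 8 genes on linkage group 4 between 614617 and 699176, with log2 fold changes between -4.72 and -1.29. In it LOC105159705 was the most abundant in control roots, at 24.8, 14.4 and 23.4 TPM in waterlogged roots, against 181, 83.2 and 200.2 TPM in control roots. LOC105159706 fell most, at 0.368, 0.543 and 0.689 TPM in waterlogged roots, against 86.1, 9.79 and 69.1 TPM in control roots. A run of 7 on linkage group 6 between 16217579 and 16313257 holds LOC105164624, LOC105164625, LOC105164626 and LOC105164627, whose log2 fold changes of -3.24, -3.45, -3.65 and -3.35 were close to each other. Their levels were alike as well: LOC105164625 was at 2.22, 3.93 and 1.51 TPM in waterlogged roots, against 54.7, 19.8 and 43.5 TPM in control roots, and LOC105164624 was at 2.22, 3.74 and 2.02 TPM in waterlogged roots, against 51.5, 19.5 and 35.2 TPM in control roots. Such neighbours may share reads, which the table does not allow to be checked.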

How the data were processed

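Root mRNA of 195 sesame samples was sequenced by the authors, who trimmed reads with Trimmomatic 0.32, mapped them to genome v1.0 with STAR and counted unique matches with featureCounts. They deposited TPM, which holds no read depth, so counting error is unknown. Each of the 195 columns matched a sample by name, 0 columns belonged to no sample, and 0 pairs of columns were identical. Groups and replicate numbers were taken from the labels.

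Fits used limma 3.58.1 in R 4.3.3 (lmFit and eBayes with trend, two-sided) on log2(TPM + 1), for genes averaging at least 1 TPM over all columns, only the compared samples entering each fit. The p-values were adjusted by Benjamini-Hochberg over all tested genes. Fold changes on this scale understate changes of low genes. The fits were tested on simulated data. Tables and figures were made in Python 3.11.15. Coordinates and names are those of the RefSeq gene table for S_indicum_v1.0, which matched 20271 of 20271 identifiers.

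The compared groups and the lists were chosen with earlier results of these data known. By rule the text names, among called genes without overlap between the groups, the 10 largest rises and falls in log2 fold change and the 4 largest in TPM, and for each interaction up to 3 in each direction. The 15 genes with a name and the members of runs were added after the files were seen. Planned lists by protein signature and promoter motifs were not analysed here, as no protein or promoter sequence was used.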

Additional observations from a re-analysis of the deposited data

Results flagged for a closer look

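The waterlogging effect at 32 h differed between the genotypes by the limma interaction test for 33 genes that were higher and 30 that were lower in R2G than in EG. Among those with the largest differences, R2G minus EG, were LOC105163771 at 3.50, LOC105160545 at 3.35 and LOC105168210 at 3.31 on the log2 scale. On the other side stood LOC105158911 at -3.14, LOC105163962 at -2.90 and LOC105156244 at -2.81.

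Within R2G the effect differed between 32 h and 24 h by the same test for 15 genes that were higher and 2 that were lower at 32 h. LOC105169032 differed by 3.00, LOC105177161 by 2.23 and LOC110012387 by 2.21, and LOC105172754 by -2.64 and LOC105173663 by -2.28. The formal test for an outlying sample needs groups larger than 3 and was not run.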

How the results depend on the processing

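The 3668 genes called between waterlogged and control R2G roots at 32 h stayed within 1.5 times that number in every alternative except without control replicate 1. With 1 library left out they ran between 2023 and 4151, and without waterlogged replicate 1 and control replicate 2 they were 4926. The 28 genes with the largest rises and falls kept their direction in all 364 fits, and 25 kept their call in all 13 alternatives. LOC105158618, LOC105171804 and LOC105174436 lost it in 4, 4 and 6 of them. Over all named genes 0 of the calls turned direction.

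The interactions were less stable. Between R2G and EG 63 genes were called. Median-ratio scaling called 38, of which 34 were among the 63, a replicate block called 6, all among the 63, and a spread shared by all samples called 1115. Leaving out a replicate number gave between 0 and 45, and leaving out waterlogged R2G replicate 1 and control R2G replicate 2 gave 61. Between 32 h and 24 h 17 genes were called. With no filter on low values 8 were called, all among the 17, a replicate block called 8, of which 6 were among the 17, and a shared spread called 713. Leaving out a replicate number gave between 0 and 21, leaving out waterlogged replicate 1 and control replicate 2 of 32 h gave 889, and leaving out control replicate 3 of 24 h gave 75. The causes were not tested.

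The study's methods name a randomized block design, but no source says that a replicate number marks a block. The deviations of same-numbered waterlogged and control libraries from their group means correlated at 0.04, -0.05 and 0.15, so the numbers were not taken to pair the samples. With the replicate block 3700 genes were called at 32 h. With no depth in TPM, counting error of low genes is unknown. The alternatives planned for lists by protein signature were not run.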
